A study of Mus musculus with 9 samples.

Results

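Complement genes of liver macrophages, endothelium and other liver cells were followed in mice with induced YAP, the transcriptional co-activator restrained by the Hippo pathway. The 9 genes described here, of 27998 in the count table, are the 3 chains of C1q (C1qa, C1qb and C1qc), the components C4b and C3, the stabilising factor properdin (Cfp) and the receptors C3ar1, C5ar1 and C5ar2. They were chosen by name with earlier results of these libraries known, among them lower C4b in macrophage-like cells and lower C5ar2 in endothelial-like cells of YAP7d mice. These changes are therefore given as values without a test. All 9 genes were detected.

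Cells came from whole livers digested with collagenase, and 9 libraries were made from C57BL/6 mice with the doxycycline-dependent activator rtTA at the ROSA26 locus (ROSA26-rtTA-IRES-EGFP). The 2 WT libraries came from mice that lacked the YAP transgene and ate doxycycline food for 7 days. The 4 YAP3d and the 3 YAP7d libraries came from mice with tetYAP, which encodes a constitutively active YAP, fed the same food for 3 and 7 days. The labels number the libraries as replicates and do not say that each is a separate mouse, so p-values below measure only the spread between these libraries. Per the study's methods the activator is released by Cre under the albumin promoter, so the transgene is induced in hepatocytes and the cells described here are mostly its neighbours. The cell preparation was one for non-hepatocytes. YAP3d mice had fewer days of doxycycline than WT mice, so that YAP7d against WT is the comparison with equal feeding. Ages were not given in the sources used here.

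Complement is a cascade of plasma proteins that tags particles for uptake, draws in leukocytes and punctures membranes. C1q recognises antibody complexes and dying cells and opens the classical pathway, in which C4 and C2 are cleaved to form the enzyme that cleaves C3, and properdin holds together the corresponding enzyme of the alternative pathway. The fragments C3a and C5a act on C3ar1 and C5ar1, while C5ar2 also binds C5a but does not couple to G proteins. Hepatocytes secrete most plasma complement, whereas C1q and properdin are made mainly by myeloid cells, and Kupffer cells, the resident macrophages of the liver, clear complement-coated particles from the blood.

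After filtering, 8527 cells remained, with 281 to 2551 cells and 1288940 to 25056881 UMIs (unique molecular identifiers, each counting 1 captured transcript) per library. Cells were clustered without the 9 genes, and clusters were called after the type whose markers they raised. In every library 10 of 10 Kupffer markers were detected in macrophage-like cells and 12 of 12 endothelial markers in endothelial-like cells. Clusters were named by such markers, so this detection is not a separate test of the names. Libraries differed in ways that touch the values below. YAP7d cells were deeper, with median UMIs of 5717 to 11471.5 per cell against 3231 to 4357.5 in WT. Macrophage-like cells gave 41.4 to 62.9% of the UMIs of YAP7d libraries, 6.50 and 7.63% in WT, and 22.6% in YAP3d replicate 2 against 4.53 to 7.45% in the other YAP3d libraries. Transcripts of the pseudogene Gm10709 stood at 347 to 611 UMIs per 1000000 UMIs of the library (CPM) in YAP3d replicates 1 and 2 and in all YAP7d libraries, but at 3.65 to 11.2 CPM in the other 4. Both WT libraries were thus on 1 side of this split and all YAP7d libraries on the other, and its part in the results was not tested beyond the values given below. Of 8515 distinct cell barcodes, 46 occurred in more than 1 library.

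The 3 C1q chain genes lie side by side on chromosome 4 (GRCm38.p6), C1qb at 136880126-136886200, C1qc at 136889801-136892936 and C1qa at 136895916-136898844. C5ar1 (chromosome 7, 16246743-16259540) and C5ar2 (chromosome 7, 16234587-16244154) are also neighbours. C4b (17:34728139-34743902) and C3 (17:57203967-57228136) share chromosome 17, while C3ar1 lies at 6:122847140-122856157 and Cfp at X:20925454-20931555. RefSeq promoter sequence of 300 bases, from 250 before to 50 after the transcript start, matched 7 of the 9 genes. Shown here are the windows that held the letters GAGGAA on either strand, those of C1qb, C1qc, Cfp and the second annotated start of C5ar2. Which start of C5ar2 was used was not measured. Capitals mark the letters GAGGAA, a PU box of the kind that myeloid ETS factors bind, or GGAATG, the TEAD site through which YAP acts, on either strand. Each sequence reads 5′ to 3′ on the coding strand, which is the minus strand of the build.
C1qb, chr4:136886151-136886450: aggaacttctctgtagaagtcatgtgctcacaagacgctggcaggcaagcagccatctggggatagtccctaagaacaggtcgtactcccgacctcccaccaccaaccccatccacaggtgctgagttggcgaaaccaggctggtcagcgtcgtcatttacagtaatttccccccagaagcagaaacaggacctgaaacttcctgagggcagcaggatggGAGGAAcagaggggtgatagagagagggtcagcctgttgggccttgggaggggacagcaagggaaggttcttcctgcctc
C1qc, chr4:136892865-136893164: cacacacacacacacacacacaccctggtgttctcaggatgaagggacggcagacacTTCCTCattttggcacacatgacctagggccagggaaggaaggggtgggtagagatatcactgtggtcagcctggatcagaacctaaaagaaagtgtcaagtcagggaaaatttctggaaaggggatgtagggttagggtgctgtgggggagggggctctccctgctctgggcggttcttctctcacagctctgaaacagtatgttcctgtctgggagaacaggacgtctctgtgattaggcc
Cfp, chrX:20931506-20931805: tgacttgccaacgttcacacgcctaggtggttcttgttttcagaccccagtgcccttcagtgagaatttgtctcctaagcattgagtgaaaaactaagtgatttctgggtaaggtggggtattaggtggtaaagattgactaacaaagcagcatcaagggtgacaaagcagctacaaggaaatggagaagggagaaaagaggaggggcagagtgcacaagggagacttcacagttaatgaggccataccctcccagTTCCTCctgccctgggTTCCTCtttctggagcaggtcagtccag
C5ar2, second start, chr7:16242282-16242581: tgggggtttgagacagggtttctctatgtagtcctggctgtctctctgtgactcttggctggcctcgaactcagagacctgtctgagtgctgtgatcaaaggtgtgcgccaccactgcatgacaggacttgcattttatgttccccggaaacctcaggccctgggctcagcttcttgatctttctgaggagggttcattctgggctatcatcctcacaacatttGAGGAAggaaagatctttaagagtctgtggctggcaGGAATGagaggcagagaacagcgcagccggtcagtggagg
The PU box lay 30 bases before the start in C1qb on the coding strand and 193 bases before it in C1qc on the opposite strand. In Cfp it occurred at both 6 and 22 bases after the start, again on the opposite strand. The second start of C5ar2 held a PU box 26 bases before it and the only TEAD letters among the windows matched, 10 bases after it. C3ar1 had an AP-1 site (TGACTCA) 22 bases before its start and no PU box, and C3, C5ar1 and the first start of C5ar2 held none of these motifs. Of 32851 promoters of this length, 28.3% held the PU box, 14.7% the TEAD letters and 5.2% the AP-1 site. A match describes the letters alone, and binding was not measured.

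C1q transcripts belonged to macrophage-like cells. Over the 9 libraries C1qa averaged 4398 ± 1285 CPM (mean ± SD, n = 9) there, against 148 ± 97.3 CPM in monocyte-like cells (n = 6), 124 ± 155 CPM in neutrophil-like cells (n = 4) and 82.1 ± 35.2 CPM in endothelial-like cells (n = 9). The companion chain C1qb stood at 4859 ± 999 CPM in macrophage-like and 378 ± 209 CPM in monocyte-like cells. For C1qc these values were 3814 ± 1007 CPM and 190 ± 112 CPM. Macrophage-like cells held 92.0% of all C1qa UMIs, 90.3% of C1qb UMIs and 91.8% of C1qc UMIs. Classes below macrophage-like cells overlapped in C1qa across libraries and cannot be ordered.

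**Figure D1:**
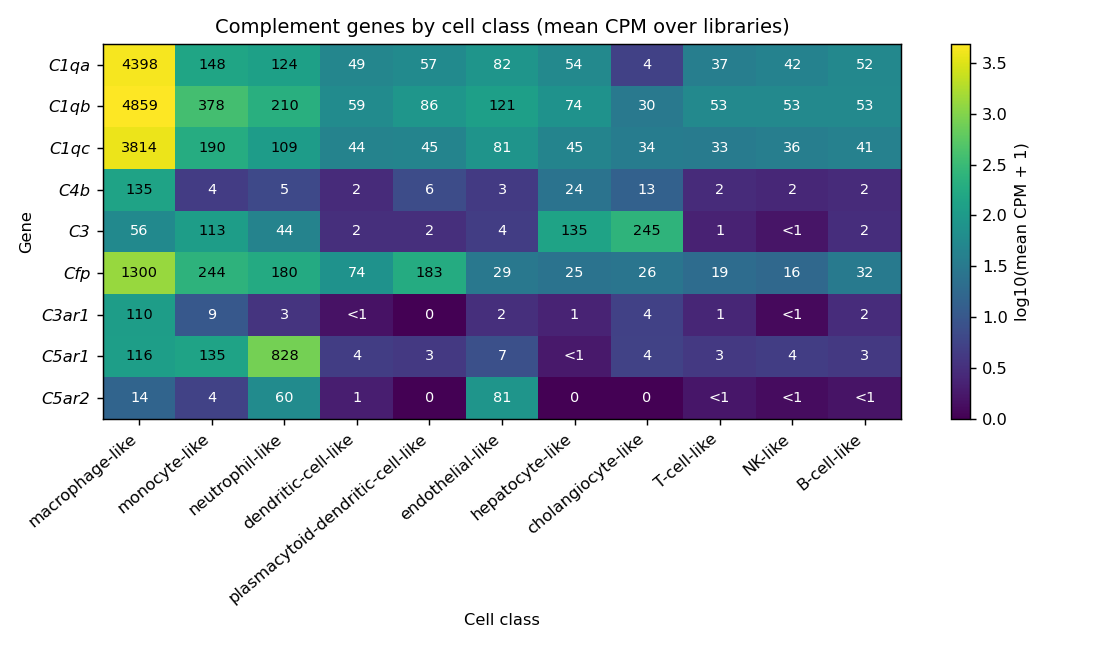
Mean level of each of the 9 complement genes (rows) in each cell class (columns), averaged over libraries with at least 10 cells of the class and coloured as log10(mean CPM + 1). The C1q chains, Cfp and C3ar1 peak in macrophage-like cells, C5ar1 in neutrophil-like, C5ar2 in endothelial-like and C3 in cholangiocyte-like and hepatocyte-like cells.

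Cfp, which encodes properdin, was spread over more myeloid types. It averaged 1300 ± 324 CPM in macrophage-like cells (n = 9), 244 ± 102 CPM in monocyte-like (n = 6), 183 ± 96.1 CPM in plasmacytoid-dendritic-cell-like (n = 4), 180 ± 84.5 CPM in neutrophil-like (n = 4) and 73.6 ± 48.7 CPM in dendritic-cell-like cells. The middle 3 of these did not differ beyond their spread. Macrophage-like cells held 75.6% of Cfp UMIs.

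The components of the later steps had other sources. C4b averaged 135 ± 122 CPM in macrophage-like cells (n = 9), with a spread as wide as the mean that is taken up below, and 24.2 ± 15.2 CPM in hepatocyte-like cells (n = 6). C4a, its near-identical neighbour, is not a row of the table, so reads that fit both genes make the C4b counts uncertain. C3, on which all complement pathways converge, was highest among the named classes in cholangiocyte-like cells (245 ± 71.6 CPM, n = 2). It followed in hepatocyte-like (135 ± 81.9 CPM, n = 6), monocyte-like (113 ± 43.9 CPM, n = 6) and macrophage-like cells (55.5 ± 65.9 CPM, n = 9), classes that overlapped. Hepatocyte-like cells were few, and monocyte-like cells held 43.1% of C3 UMIs over all libraries, 617 of them from YAP7d replicate 3 alone.

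The receptors were highest in different classes among those with at least 10 cells in a library. C3ar1 averaged 110 ± 33.2 CPM in macrophage-like cells (n = 9) and 9.45 ± 5.05 CPM in monocyte-like cells, and macrophage-like cells held 86.0% of its UMIs. C5ar1, the receptor through which C5a calls in neutrophils, reached 828 ± 313 CPM in neutrophil-like cells (n = 4), 135 ± 90.5 CPM in monocyte-like cells (n = 6) and 116 ± 75.4 CPM in macrophage-like cells (n = 9), and the latter pair overlapped. C5ar2 stood at 81.4 ± 55.5 CPM in endothelial-like cells (n = 9), 59.9 ± 72.7 CPM in neutrophil-like (n = 4) and 14.4 ± 8.61 CPM in macrophage-like cells. The neutrophil-like level of C5ar2 overlapped with the endothelial-like one. Endothelial-like cells held 80.2% of C5ar2 UMIs over all libraries. These class levels are descriptions, with no test between classes.

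Macrophage-like cells fell into a cluster with 10 of 10 Kupffer markers raised, called Kupffer-like here, and a cluster with 0 of them raised. In WT the Kupffer-like cluster held 27 of 34 and 57 of 73 macrophage-like cells, and in YAP7d 93 of 161, 144 of 213 and 145 of 499. C1qa averaged 5226 ± 1389 CPM in the Kupffer-like cluster (n = 9) and 2977 ± 864 CPM in the other (n = 6). Cfp differed more, with 1771 ± 275 CPM against 527 ± 211 CPM. C5ar1 ran the other way, with 75.4 ± 39.8 CPM in the Kupffer-like cluster and 225 ± 119 CPM in the other, while C3ar1 was similar at 104 ± 44.9 CPM and 132 ± 54.0 CPM. A difference between groups over all macrophage-like cells can therefore hold a change in this mixture, and the summed level of the 10 Kupffer markers was 9796 and 13116 CPM in WT, 5445 to 13647 CPM in YAP3d and 4595 to 11712 CPM in YAP7d.

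Whether macrophages change their complement genes under YAP was asked first in all macrophage-like cells. C1qa stood at 4028 and 6279 CPM in WT, 5764, 2697, 5336 and 5196 CPM in YAP3d and 3428, 3888 and 2965 CPM in YAP7d. All YAP7d values were below both WT values, but YAP3d replicate 2 was lower still. The fitted log2 fold change from WT to YAP7d was -0.64 (SE 0.30, adjusted p = 0.287), with adjustment over all genes tested and a threshold of 0.05. C1qb stood at 3330 and 6409 CPM in WT, 5855, 3497, 5407 and 5034 CPM in YAP3d and 4648, 4826 and 4725 CPM in YAP7d, so that the YAP7d values lay between those of the WT libraries. Its log2 fold change was -0.08 (SE 0.30, adjusted p = 0.937), and that of C1qc was -0.29 (SE 0.31, adjusted p = 0.687). Cfp was as even, with 1123 and 1541 CPM in WT and 1249, 1693 and 1005 CPM in YAP7d (log2 fold change -0.08, SE 0.30, adjusted p = 0.942).

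**Figure D2:**
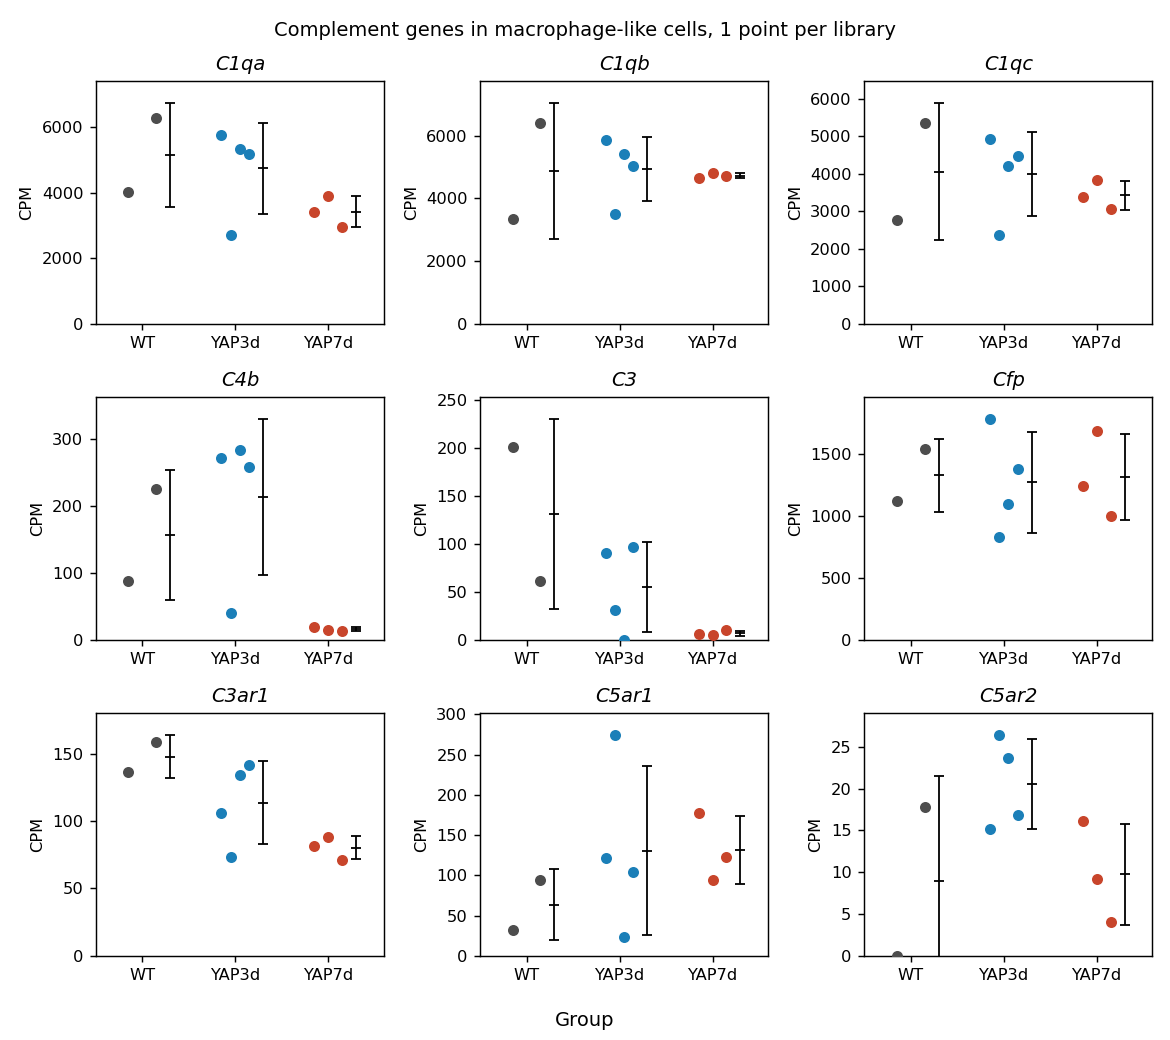
Level (CPM of summed counts) of the 9 genes in macrophage-like cells, 1 point per library and 1 panel per gene, by group; black marks are mean and SD. The C1qb and Cfp values of the groups overlap, and the 3 YAP7d libraries lie at 12.7 to 19.0 CPM of C4b, below every other library.

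C3ar1, the C3a receptor, stood at 136 and 159 CPM in WT and at 81.7, 87.9 and 71.3 CPM in YAP7d macrophage-like cells, and YAP3d spanned 73.2 to 142 CPM. WT and YAP7d did not overlap, at a log2 fold change of -0.95 (SE 0.32, adjusted p = 0.112). C5ar1 stood at 32.1 and 94.6 CPM in WT and 177, 93.6 and 123 CPM in YAP7d, which overlapped (log2 fold change 0.80, SE 0.72, adjusted p = 0.635). C5ar2 was low in these cells, at 0 and 17.9 CPM in WT and 16.1, 9.17 and 3.99 CPM in YAP7d.

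C3 in macrophage-like cells rested on few counts. It stood at 201 and 60.7 CPM in WT, 90.8, 30.8, 0 and 96.2 CPM in YAP3d and 6.35, 4.59 and 9.79 CPM in YAP7d. The log2 fold change from WT to YAP7d was -3.94 (SE 0.86, adjusted p = 0.0584), which missed the threshold. The highest value rested on 25 UMIs of WT replicate 1, of which 24 came from the 7 macrophage-like cells outside the Kupffer-like cluster.

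Of the 8 genes other than C4b, edgeR called 0 between YAP7d and WT in macrophage-like cells, with 3 at an unadjusted p under 0.05 and 1 (C3) called by DESeq2. Of all genes tested there, 2.2% were called. Their median log2 fold change was -0.45, beside 0.014 over all genes tested. Between YAP3d and WT edgeR called 0 of the 8, with 0 at an unadjusted p under 0.05 and 0 by DESeq2, where 0% of all genes were called. Between YAP7d and YAP3d it called 0, with 2 at an unadjusted p under 0.05 and 0 by DESeq2, beside 0.352% of all genes. With 2 WT libraries the errors are wide. The count of 0 became 2 without YAP3d replicate 2 (C3 and C3ar1) and 1 (C3) without YAP3d replicate 3 or replicate 4.

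C4b was low in every YAP7d library. In macrophage-like cells it stood at 88.3 and 225 CPM in WT, 272, 39.6, 284 and 258 CPM in YAP3d and 19.0, 15.3 and 12.7 CPM in YAP7d. Every YAP7d library was below every other library, and YAP3d replicate 2 stood apart from the other YAP3d libraries. The log2 fold change was -3.49 (SE 0.76) against WT and -3.67 (SE 0.70) against YAP3d, with no test because the gene was chosen on this difference. In the libraries with Gm10709 transcripts alone, YAP3d replicates 1 and 2 had 272 and 39.6 CPM and the YAP7d libraries 12.7 to 19.0 CPM.

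Counted from the same UMIs, and given without a test, fewer macrophage-like cells of YAP7d had a C4b transcript. In WT 43.4% of macrophage-like cells had a C4b UMI, in YAP3d 41.6% and in YAP7d 15.9%, at median depths of 5585, 5530 and 16087 UMIs per cell. With every cell thinned to 2000 UMIs, which left 89, 158 and 873 of 107, 190 and 873 cells, the shares were 16.9 ± 16.0%, 28.8 ± 14.6% and 4.10 ± 1.87% (SD over libraries). B-cell-like cells, which should lack the transcript, had shares of 1.21, 0.369 and 0.617% unthinned and 0.754, 0.193 and 0.617% thinned in WT, YAP3d and YAP7d, at median depths of 3032, 3295 and 3255 UMIs. The WT share thinned varied about as widely between the 2 libraries as its own mean.

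Within the Kupffer-like cluster, C3ar1 and C4b were lower after 7 days, and no C1q chain passed the test. C3ar1 stood at 187 and 149 CPM in WT, 112, 70.5, 114 and 117 CPM in YAP3d and 64.5, 69.9 and 49.3 CPM in YAP7d. The YAP7d values lay below all others. Among libraries with Gm10709 transcripts, YAP3d replicates 1 and 2 had 112 and 70.5 CPM and the YAP7d libraries 49.3 to 69.9 CPM. The C3ar1 log2 fold change from WT of -1.41 (SE 0.34, adjusted p = 0.0356) passed the threshold. It was the only call among the 8 genes other than C4b in that comparison, where 1.83% of all genes were called. C4b stood at 147 and 263 CPM in WT, 243, 62.7, 417 and 319 CPM in YAP3d and 28.8, 21.5 and 30.4 CPM in YAP7d, a log2 fold change of -2.99 (SE 0.61) against WT.

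C1qa in the Kupffer-like cluster stood at 6366 and 7029 CPM in WT, 6704, 3322, 5883 and 5651 CPM in YAP3d and 4049, 4287 and 3746 CPM in YAP7d. WT and YAP7d did not overlap, while the log2 fold change of -0.72 (SE 0.29, adjusted p = 0.192) did not pass. C1qb at 4654 and 7183 CPM in WT held the 4950, 4985 and 5017 CPM of YAP7d between its values. Cfp was 1819 and 1960 CPM in WT and 1705, 2071 and 1564 CPM in YAP7d. C3 stood at 13.4 and 35.6 CPM in WT, 112, 15.7, 0 and 75.0 CPM in YAP3d and 4.12, 3.22 and 7.30 CPM in YAP7d, so that 1 YAP3d library was at 0 and overlapped with YAP7d, and both WT values lay within the YAP3d range. That of WT replicate 1 rests on 1 UMI. Between YAP7d and YAP3d, C3 passed (log2 fold change -3.08, SE 0.63, adjusted p = 0.0341) and the other genes besides C4b did not, where 0.603% of all genes were called. DESeq2 gave no adjusted p for that C3 change.

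**Figure D3:**
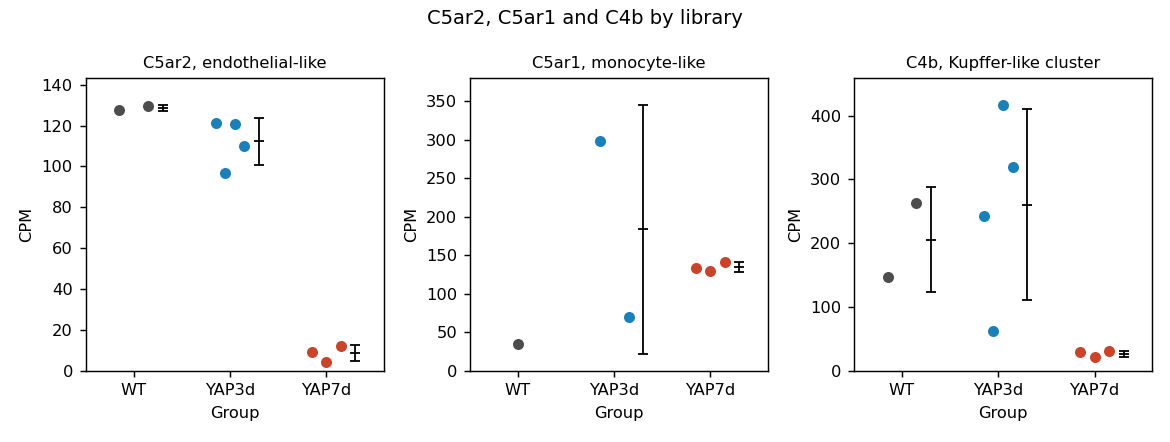
Level (CPM of summed counts) by group, 1 point per library with mean and SD, of C5ar2 in endothelial-like cells, C5ar1 in monocyte-like cells and C4b in the Kupffer-like cluster. C5ar2 lies at 96.9 to 130 CPM in WT and YAP3d and at 4.51 to 12.3 CPM in YAP7d, and C4b in YAP7d at 21.5 to 30.4 CPM.

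C5ar2 was found in the endothelial-like cells of every WT and YAP3d library. There it stood at 128 and 130 CPM in WT, 121, 96.9, 121 and 110 CPM in YAP3d and 9.03, 4.51 and 12.3 CPM in YAP7d. In WT replicate 2 neutrophil-like cells had a like level, 156 CPM on 8 UMIs in 24 cells. The 6 libraries of WT and YAP3d lay close together and every YAP7d library far below them. The log2 fold change was -3.56 (SE 0.32) against WT and -3.36 (SE 0.31) against YAP3d, with no test because the gene was chosen on it. Among libraries with Gm10709 transcripts, YAP3d replicates 1 and 2 had 121 and 96.9 CPM, the same order of level as WT.

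The endothelial-like cells of YAP7d fell mostly into a cluster of their own, and other cells and changed expression of the same cells cannot be told apart. Their 111 cells lay mostly in 1 cluster (94 cells), which held 6 YAP3d cells and no WT cell, and the summed level of the 12 endothelial markers was 8000 to 8282 CPM in YAP7d, 15576 and 17227 CPM in WT and 14608 to 16081 CPM in YAP3d. In that cluster 10 C5ar2 UMIs gave 8.11 CPM in YAP7d (95% exact Poisson interval 3.89 to 14.9, counting error only). In the remaining endothelial-like clusters, 17 YAP7d cells gave 4 UMIs or 37.2 CPM (interval 10.1 to 95.1), against 129 CPM in WT (interval 117 to 142) and 112 CPM in YAP3d (interval 103 to 122). By library these YAP7d cells, 7, 5 and 5 in number, gave 0, 34.3 and 72.7 CPM on 0, 1 and 3 UMIs, while WT had 128 and 130 CPM and YAP3d 98.0 to 121 CPM. The YAP7d libraries fell short of the minimum of 10 cells, so no fit was run.

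The share of endothelial-like cells with a C5ar2 UMI was 32.9% in WT, 30.7% in YAP3d and 8.91% in YAP7d, at median depths of 3947, 4347 and 11567 UMIs. Thinned to 2000 UMIs, which left 598 of 778 WT cells and 901 of 1060 YAP3d cells, it was 21.7 ± 2.56%, 19.4 ± 2.74% and 1.39 ± 2.41%. In B-cell-like cells it was 0.242, 0.0739 and 0.694% unthinned and 0, 0.0385 and 0% thinned. Unthinned, the YAP7d share in endothelial-like cells was above this background, but at unlike median depths of 11567 and 3255 UMIs. After thinning, its spread over libraries exceeded its mean.

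In macrophage-like cells the log2 fold change of C5ar2 was -0.61 (SE 0.76, adjusted p = 0.739), where WT replicate 1 had 0 UMIs. In a separate fit over both classes, with the library as a block, the change in endothelial-like cells was lower by 2.50 on the log2 scale (SE 0.68), given without a test. For the 8 other genes in the fit over both classes edgeR called 0 such differences, with 2 (C3 and C3ar1) at an unadjusted p under 0.05, beside 1.13% of all genes. C3, C3ar1, C5ar1 and C4b entered that fit through their macrophage-like counts, so their differences rest on low endothelial-like counts and are not read further. In the fit of endothelial-like cells alone these 4 genes did not pass the filter on low counts.

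The other genes did not pass in endothelial-like cells. C1qa stood at 53.2 and 87.3 CPM in WT and 63.2, 40.6 and 113 CPM in YAP7d (log2 fold change 0.24, SE 0.43, adjusted p = 0.753). C1qb, C1qc and Cfp had log2 fold changes of 0.81, 0.78 and 0.93 (SE 0.77, 0.72 and 0.79). EdgeR called 0 of these 4, with 0 at an unadjusted p under 0.05 and 0 by DESeq2, whereas 18.1% of all genes were called. Between YAP7d and YAP3d the counts were the same 0, 0 and 0, beside 17.6% of all genes, and between YAP3d and WT again, beside 0%. The summed macrophage markers in these cells were 140 and 244 CPM in WT, 139 to 568 CPM in YAP3d and 221 to 460 CPM in YAP7d.

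C5ar1 in monocyte-like cells stood at 34.9 CPM in WT replicate 2, 298 and 69.5 CPM in YAP3d replicates 2 and 4, and 133, 130 and 142 CPM in YAP7d. Only 1 WT library had 10 such cells, so this class was not tested. Cfp ran alike, at 94.1 CPM in WT, 315 and 132 CPM in YAP3d and 314, 305 and 303 CPM in YAP7d. C3 stood at 191 CPM in WT, 85.3 and 137 CPM in YAP3d and 91.0, 74.3 and 97.8 CPM in YAP7d. With a minimum of 5 cells in place of 10, which let WT replicate 1 in, Cfp had a log2 fold change of 1.66 (adjusted p = 0.097) and C5ar1 one of 2.05 (adjusted p = 0.85). Neutrophil-like cells reached 10 in only 4 libraries, where C5ar1 stood at 1231 CPM in WT replicate 2, 845 and 765 CPM in YAP3d replicates 2 and 4 and 472 CPM in YAP7d replicate 3.

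C1q transcripts were also counted in lymphocytes, which do not make C1q. In NK-like cells C1qc stood at 9.35 and 21.4 CPM in WT, 31.0, 14.3, 0 and 18.7 CPM in YAP3d and 32.7, 99.9 and 99.1 CPM in YAP7d. All YAP7d values exceeded all others, and C1qc passed against WT (log2 fold change 2.15, SE 0.63, adjusted p = 0.0394), beside 7.87% of all genes, while C1qa and C1qb did not (adjusted p = 0.0544 and 0.15). DESeq2 called 0 of the 3. Against YAP3d all 3 passed, at log2 fold changes of 1.86 (C1qa), 2.23 (C1qc) and 2.598 (C1qb), beside 14.6% of all genes. C1qc in NK-like cells was a median of 4.06% of its level over all cells of the same library (range 0 to 11.9%), in T-cell-like cells 3.51% (0 to 8.92%) and in B-cell-like cells 2.85% (0 to 9.88%).

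Cfp in T-cell-like cells was a median of 4.51% of its level over all cells (2.32 to 9.13%), and in B-cell-like cells 8.20% (0 to 33.4%). In T-cell-like cells Cfp stood at 2.27 and 16.3 CPM in WT, 6.25 to 12.9 CPM in YAP3d and 24.1, 44.2 and 46.8 CPM in YAP7d. EdgeR called 0 of the 4 genes tested between YAP7d and WT, with 2 at an unadjusted p under 0.05 and 1 by DESeq2, beside 0% of all genes. Against YAP3d, Cfp passed (log2 fold change 1.93, SE 0.43, adjusted p = 0.0391), 1 of 4 by edgeR and 2 by DESeq2, beside 1.04% of all genes. In B-cell-like cells edgeR called 0 of 3 between YAP7d and WT, with 3 at an unadjusted p under 0.05 and 0 by DESeq2, beside 0.0448% of all genes. The part of free RNA in these values was not tested.

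Over all cells of a library, the C1q chains, Cfp and C3ar1 were higher after 7 days. C1qa stood at 292 and 622 CPM in WT, 311, 677, 444 and 297 CPM in YAP3d and 1457, 2494 and 1346 CPM in YAP7d. C1qb stood at 245 and 652 CPM in WT, 316, 999.8, 462 and 298 CPM in YAP3d and 2001, 3108 and 2198 CPM in YAP7d. Neither gene's YAP7d values overlapped with another group. The log2 fold changes from WT were 2.09 (SE 0.46, adjusted p = 0.0158) for C1qa, 2.59 (SE 0.62, adjusted p = 0.0216) for C1qb and 2.35 (SE 0.55, adjusted p = 0.0193) for C1qc.

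Cfp stood at 98.1 and 245 CPM in WT, 126, 329, 138 and 141 CPM in YAP3d and 613, 1109 and 555 CPM in YAP7d, a log2 fold change of 2.27 (SE 0.56, adjusted p = 0.023). C3ar1 stood at 9.39 and 18.3 CPM in WT, 7.95 to 22.8 CPM in YAP3d and 35.4, 57.2 and 34.9 CPM in YAP7d, a log2 fold change of 1.69 (SE 0.48, adjusted p = 0.0356). C3 (log2 fold change 0.22, SE 0.55, adjusted p = 0.808) and C5ar1 (2.38, SE 1.03, adjusted p = 0.134) did not pass. Of C5ar1, YAP3d replicate 2 had 155 CPM and the other YAP3d libraries 12.3 to 21.7 CPM, beside 69.0 to 98.3 CPM in YAP7d and 13.6 and 23.6 CPM in WT. Over these cells C5ar2 had a log2 fold change of -2.98 (SE 0.43) and C4b one of -1.78 (SE 0.62), both without a test. The C4b value turned to 0.80 without WT replicate 2, in which an unnamed cluster of 22 cells over all libraries held 61.1% of the C4b UMIs.

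**Figure D4:**
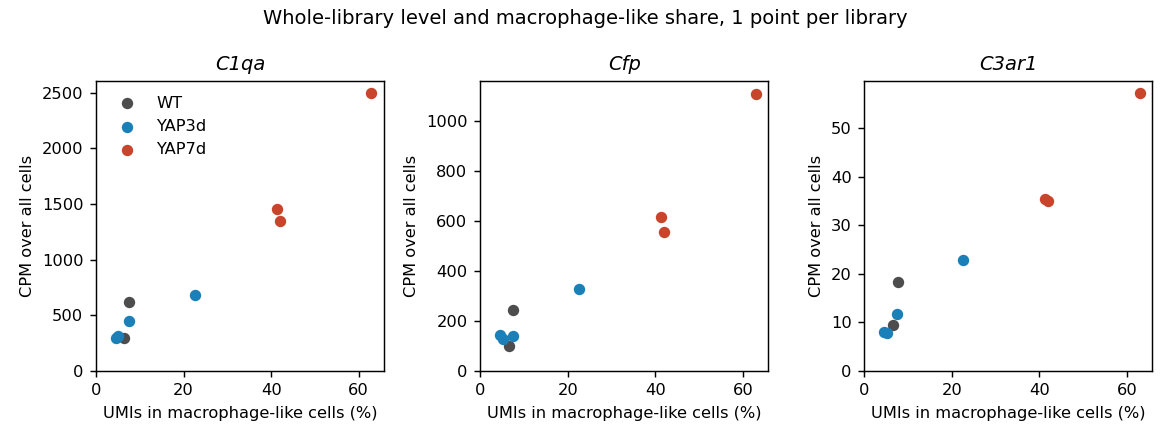
Level over all cells of a library (CPM) of C1qa, Cfp and C3ar1 against the percent of the library's UMIs in macrophage-like cells, 1 point per library, coloured by group. The YAP7d libraries have both the highest levels and 41.4 to 62.9% of UMIs in macrophage-like cells, and YAP3d replicate 2 at 22.6% lies above the other YAP3d libraries.

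Of the 7 genes other than C4b and C5ar2, 5 were thus called between YAP7d and WT, all higher, beside 18% of all genes called and 7.08% called and higher. The same 5 were called against YAP3d, at log2 fold changes of 1.88 to 2.38 and adjusted p of 0.00783 to 0.0129, beside 16.5% of all genes called and 6.69% called and higher. Between YAP3d and WT edgeR called 0 of the 9, with 0 at an unadjusted p under 0.05 and 0 by DESeq2, beside 0% of all genes. These sums move with the number of cells of a type and with the RNA per cell. Macrophage-like cells were 6.53 and 5.16% of cells in WT and 26.9, 46.2 and 27.2% in YAP7d. Of UMIs they gave 6.50 and 7.63% in WT and 41.4, 62.9 and 42.0% in YAP7d. The part of each was not tested. Macrophage-like cells held 96.0% of C1qa UMIs in YAP7d and 83.4% in WT. Without WT replicate 1 none of these 5 stayed past the threshold, without YAP7d replicate 2 only C1qa did, and with a term for the Gm10709 split 0 did. Within the libraries with Gm10709 transcripts, C1qa stood at 311 and 677 CPM in YAP3d and at 1346 to 2494 CPM in YAP7d.

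Where the transcripts lay also differed between groups. Macrophage-like cells held 61.3% of Cfp UMIs in WT, 58.1% in YAP3d and 85.4% in YAP7d, as means over libraries. For C5ar1 these shares were 23.0, 27.0 and 70.9%, while neutrophil-like cells held 43.2, 40.1 and 3.59%. C5ar2 went from 95.9% in endothelial-like cells of WT and 82.0% in YAP3d to 7.28% in YAP7d, where macrophage-like cells held 74.3%. These are shares of a library's own UMIs and follow the numbers of cells in it.

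The 3 C1q chains, which assemble in equal numbers into C1q, did not keep the same ratio of UMIs in every library. This pattern was picked out after the values were seen. In the Kupffer-like cluster C1qb UMIs per C1qa UMI were 0.731 and 1.02 in WT, 1.02, 1.15, 0.861 and 0.945 in YAP3d and 1.22, 1.16 and 1.34 in YAP7d. C1qc UMIs per C1qa UMI were 0.687 and 0.865 in WT, 0.841, 0.919, 0.848 and 0.849 in YAP3d and 1.002, 1.002 and 1.099 in YAP7d. For both ratios the lowest YAP7d library was above the highest of the other groups. The mean of YAP7d exceeded that of YAP3d by 0.247 for C1qb and by 0.170 for C1qc, and that of WT by 0.365 and 0.258, with no test because the pattern was picked out from these values.

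In all macrophage-like cells C1qb per C1qa was 0.827 and 1.02 in WT, 1.02, 1.30, 1.01 and 0.969 in YAP3d and 1.36, 1.24 and 1.59 in YAP7d. YAP3d replicate 2 overlapped with YAP7d, at a difference of means of 0.323. In the macrophage-like cluster without Kupffer markers the ratio was 1.71, 1.53 and 1.76 in YAP7d. There WT replicate 1 had 2.58 on 26 C1qa UMIs of 7 cells and WT replicate 2 had 1.01.

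**Figure D5:**
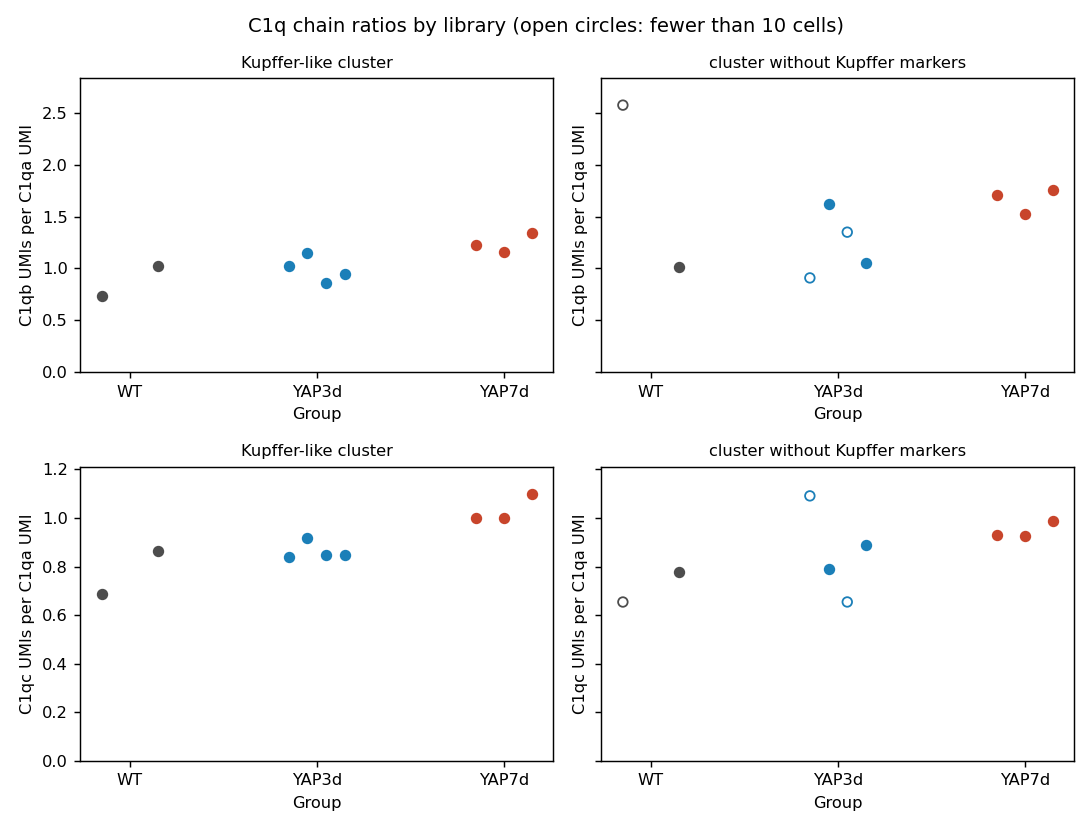
UMIs of C1qb and of C1qc per UMI of C1qa by library and group in the macrophage-like clusters; open circles are libraries with fewer than 10 cells. In the Kupffer-like cluster the YAP7d libraries lie at 1.16 to 1.34 C1qb and 1.002 to 1.099 C1qc per C1qa, above the WT and YAP3d libraries.

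Among 38 other complement genes in the table, Cfb and Cd55 were lower and C1qbp was higher after 7 days in macrophage-like cells. Of the 15 tested, 1 was higher in YAP7d than in WT, 2 were lower and 12 did not pass, beside 2.2% of all genes called. With a term for the Gm10709 split 1 of all genes was called, so at least 2 of these calls were lost. Cfb, the protease subunit of the alternative C3 convertase, stood at 185 and 87.5 CPM in WT, 16.1 to 106 CPM in YAP3d and 14.8, 11.8 and 14.6 CPM in YAP7d, and fell by 3.19 on the log2 scale (SE 0.47, adjusted p = 0.00191). Cd55, which speeds the decay of convertases on the cell's own surface, stood at 64.2 and 48.2 CPM in WT, 22.0 to 70.9 CPM in YAP3d and 9.73, 9.94 and 10.4 CPM in YAP7d, and fell by 2.42 (SE 0.47, adjusted p = 0.0108). C1qbp rose by 1.58 (SE 0.42, adjusted p = 0.0494). It is named for binding C1q but is mainly a mitochondrial protein. In the Kupffer-like cluster Cfb and Cd55 also passed, at -2.77 and -1.92, as 2 of 13 tested, beside 1.83% of all genes. The median log2 fold change of the 15 genes was -0.88 beside 0.014 over all genes.

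In endothelial-like cells 11 of these genes were tested, of which 2 were higher and 4 lower in YAP7d than in WT, and 5 did not pass, beside 18.1% of all genes called. The same 6 were called against YAP3d. Cd59a, which blocks the membrane attack complex, stood at 455 and 492 CPM in WT and 145, 234 and 223 CPM in YAP7d, and fell by 1.16 (SE 0.20). Cd55 fell by 0.72 (SE 0.21) and the C1 protease gene C1ra by 1.45 (SE 0.42). Cd93, a surface receptor of endothelium and myeloid cells first named for C1q, rose by 1.03 (SE 0.24), from 218 and 209 CPM in WT to 348, 365 and 515 CPM in YAP7d, and C1qbp rose by 1.87 (SE 0.23). These calls compared all endothelial-like cells of the groups. Those of YAP7d lay mostly in the cluster described above, and their endothelial markers summed to a lower level. With a term for the Gm10709 split fewer of all genes were called, as given below.

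Over all cells of a library 29 of these genes were tested, of which 4 were higher, 5 lower and 20 not past the threshold, beside 18% of all genes called. With a term for the Gm10709 split 0 of all genes were called, so all of these calls were lost. Lower were Cd59a (log2 fold change -3.62), Hc, the gene of C5 (-3.03), Cd55 (-2.92), C1ra (-1.28) and Cd93 (-0.96). Cd93 thus fell over all cells while it rose in endothelial-like cells. Hc rested on 10 and 20 UMIs in WT and on 4, 4 and 1 in YAP7d. In WT 10 and 19 of them came from endothelial-like cells. Higher were Vsig4 (2.07), the macrophage receptor for C3b that was also used to name clusters, C1qbp (1.14), and the liver genes C4bp and C9. C9 had 1 and 0 UMIs in WT and 21, 38 and 50 in YAP7d, where hepatocyte-like cells held 21, 36 and 38 of them. Hepatocyte-like cells were 2 and 1 in number in WT and 28, 22 and 11 in YAP7d. Their part in these calls was not tested. In NK-like cells C1qbp rose by 1.32 (adjusted p = 0.0135), 1 of 6 tested, beside 7.87% of all genes.

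Genes with the pattern most like a member across 71 sums of 1 library and 1 class (11 classes, 6296 genes) were found by Pearson correlation of log2(CPM + 10), as a description over sums that share libraries. For C1qa they were Vsig4 (r = 0.94), Ccl24 (0.94), Folr2 (0.94), Cd5l (0.94) and Fcna (0.93). For Cfp they were AF251705 (0.90), P2ry12 (0.89), Csf1r (0.89), Fcgr4 (0.88) and Cd68 (0.87). C4b was most like Cxcl13 (0.87), Cd163 (0.83), Paqr9 (0.82), Folr2 (0.80) and Fcna (0.80). C5ar2 was most like Calml4 (0.84), Il1a (0.84), Bvht (0.82), Npl (0.81) and Epas1 (0.80). Several of these are also class markers. Among the members, the C1q chains had correlations of 0.95 to 0.97 with each other, and C1qa had 0.92 with C3ar1, 0.86 with Cfp, 0.71 with C4b and 0.52 with C5ar1.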

How the data were processed

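Droplet 3′ single-cell libraries (Chromium v2 for this set, per the study's methods) were sequenced from 2 WT, 4 YAP3d and 3 YAP7d samples. The authors aligned reads to mm10 with Cell Ranger and deposited raw UMI counts per gene and cell, in which the cell name gives the library. Cells with under 200 genes (35 of 8562) were left out, while 353 cells over 10% mitochondrial counts and 60 cells called doublets by Scrublet (0.704%) were kept. Counts were scaled to 10000 per cell, log-transformed and clustered with scanpy 1.11.5 (30 principal components, 15 neighbours, Leiden resolution 1, igraph 0.11.9, Python 3.11.15), with the 9 genes and 22 cell cycle genes left out. This gave 24 clusters. A cluster was named after the type with the largest share of markers raised by a log2 fold over 1, with at least 3 raised. Of 174 markers, 168 were in the table. The 10 leading genes of a cluster were also read for markers of its own and of other types. By these steps 364 cells in 3 clusters stayed unnamed. Among them, the cluster led by Prg4 had 8 of 12 macrophage markers raised and that led by Dcn 5 of 6 mesothelial markers. Their 10 leading genes held 0 markers of the candidate type and 1 and 3 of other types. Names rebuilt this way may differ from those of the study.

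UMIs were summed per library and class where at least 10 cells were present. The 3 groups entered 1 quasi-likelihood fit (edgeR 4.0.16, R 4.3.3, filterByExpr, TMM), and p-values were adjusted by the Benjamini-Hochberg method over all genes tested, with DESeq2 1.42.0 as a second tool. SE is the log2 fold change divided by the root of F. The fit was tested on simulated data. CPM are counts per 1000000 UMIs of the class in that library, and precision follows depth: 1 UMI was worth most in small classes. Intervals cover counting error only. Alternatives included other scaling, no filter on low counts, a replicate block, stricter cells, and each library left out in turn.

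The 9 genes, the other gene lists and the tests were chosen with earlier results of these data known. All 9 genes are named whatever their values. Of the other complement genes those past the threshold are named, except 1 that is counted but not reported here, and for C1qa, C4b, Cfp and C5ar2 also the 5 genes most like each, among genes of at least 50 CPM in 1 class. Coordinates and promoters come from RefSeq (GRCm38.p6).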

Additional observations from a re-analysis of the deposited data

Results flagged for a closer look

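In 36 sets of 4 YAP3d libraries examined for a library far from the others (Dixon's criterion, which chance meets in about 1 of 20 sets), 4 stood apart, each time YAP3d replicate 2. Its C4b in macrophage-like cells was 39.6 CPM, with the others at 258 to 284 CPM. Its Cfp over all cells was 329 CPM, with the others at 126 to 141 CPM. Its C3ar1 in the Kupffer-like cluster was 70.5 CPM, with the others at 112 to 117 CPM. Its C5ar1 over all cells was 155 CPM, with the others at 12.3 to 21.7 CPM. The same library had 22.6% of its UMIs in macrophage-like cells, and the part of that share in these values was not tested.

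The change of C5ar2 from WT to YAP7d differed between endothelial-like and macrophage-like cells by a log2 difference of -2.50 (SE 0.68). The gene was chosen on its change in endothelial-like cells, so this is a description.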

How the results depend on the processing

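In macrophage-like cells the count of genes called between YAP7d and WT, 0 of the 8 other than C4b, was 1 with DESeq2, with no filter on low counts and with the replicate block (C3 each time), and 1 in the Kupffer-like cluster and with YAP3d replicates 1 and 2 left out together (C3ar1). Leaving out 1 library gave 0 to 2. Over all cells the count of 6 (with C5ar2) was 0 with a term for libraries with Gm10709 transcripts and 2 to 7 with 1 library left out. Those counts include C4b and C5ar2 where they pass, which were chosen on their change: the 2 left without WT replicate 1 were these genes, and none of the other 5 stayed. The count in endothelial-like cells was 0 in every alternative run, and the calls within single classes other than the Kupffer-like cluster, in the remaining comparisons of macrophage-like, endothelial-like, T-cell-like, NK-like and B-cell-like cells, were 5 with edgeR and 6 with DESeq2. Directions turned for genes that were not called. In macrophage-like cells C1qb had a log2 fold change of 0.20 with monocyte-like cells added, 0.17 with the Gm10709 term and -0.45 to 0.58 with 1 library left out. C1qc had 0.049 with that term and -0.66 to 0.37. Cfp had 0.25 with monocyte-like cells, 0.00069 with the replicate block and -0.26 to 0.28. C5ar1 had -0.64 with the Gm10709 term, and C5ar2 -1.11 to 7.22 (7.22 without WT replicate 2, which leaves WT at 0 UMIs). In endothelial-like cells C1qa had -0.15 with the replicate block and -0.44 to 0.68, C1qb -0.026 to 1.63 and Cfp -0.047 to 1.60 with 1 library left out. Over all cells C3 had -1.26 and C5ar1 -0.067 with the Gm10709 term, C3 -0.12 to 0.75 and C4b -2.59 to 0.80 with 1 library left out (0.80 without WT replicate 2). C4b in macrophage-like cells kept its direction (-1.95 with the Gm10709 term, -3.87 to -2.44), as did C5ar2 in endothelial-like cells (-4.19 to -3.34). The YAP7d minus WT difference in C1qb per C1qa was -0.13 in the macrophage-like cluster without Kupffer markers, which rests on the 7 cells of WT replicate 1, under the minimum of 10. The cause of these changes was not tested. Genes called among all genes in macrophage-like cells were 150, and 335 with the replicate block, 503 with no filter, 1 with the Gm10709 term and 18 to 450 with 1 library left out; in endothelial-like cells 1367 and 270 with that term (714 to 1413), and over all cells 2169 and 0 (493 to 3164). Replicate numbers did not pair the libraries: deviations of same-numbered libraries correlated at -0.113 to 0.0499 in macrophage-like cells and -0.285 to 0.209 over all cells. A term for Xist could not be fitted since every library had the transcript. With 1 WT library of 10 monocyte-like cells the planned fit of that class and its alternatives were not run, apart from the fit with a minimum of 5 cells, nor were those of macrophage-like cells without Kupffer markers and of endothelial-like cells without the mostly YAP7d cluster, for lack of cells. The depth of the smaller classes limits C3, C3ar1 and C5ar2, and shares of cells with a UMI fell on thinning in all groups for C4b and C5ar2. The alternatives with the Gm10709 term, with a minimum of 5 monocyte-like cells, without the mostly YAP7d cluster, with YAP3d replicates 1 and 2 left out, with single macrophage-like clusters for the C1q ratios and with DESeq2 in the other classes were chosen after seeing the data.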

Other observations

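Small clusters held some of the highest levels of these genes, given as pooled values since few libraries had 10 of their cells. A cluster of 22 cells led by Prg4, Alox15, Saa3 and Pf4, with no class name and 15 of its cells from WT replicate 2, had 1289 CPM of C4b, 3260 CPM of Cfp and 3254, 3378 and 3613 CPM of C1qa, C1qb and C1qc. It gave 33.1% of all C4b UMIs and 61.1% of those of WT replicate 2. C4b was itself among its 10 leading genes. A cluster of 22 cells led by the matrix genes Dcn, Col3a1 and Col1a1 had 2697 CPM of C3, 23.6% of all C3 UMIs, and 94.5 CPM of C4b. Basophil-or-mast-like cells, 22 in all, had 628 CPM of C5ar1 and 235 CPM of C3ar1. An unnamed cluster of 320 cells led by Cd209a, Elane, Ctsg and Mpo had 357 ± 90.6 CPM of Cfp (SD, n = 8 libraries).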
